A study of Homo sapiens with 4 samples.

Results

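Collagens are the triple-helical proteins of the extracellular matrix, and the human genome encodes 44 of their chains as protein-coding genes named COL with a type and a chain number. These 44 genes, of 20046 protein-coding genes in GENCODE release 44, were examined in 2 lists of Flag-FLI1 binding peaks from chromatin immunoprecipitation followed by sequencing (ChIP-seq) in HK1, a nasopharyngeal carcinoma cell line. Every peak that overlapped the body of a collagen gene or the 3 kb on either side of any of its annotated transcription start sites (TSSs) was taken. The rule took 87 of 30819 control peaks and 101 of 39654 IFN-γ peaks, and 3 peaks of each list counted for 2 neighbouring collagen genes.

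In both groups the HK1 cells carried the same FLI1 overexpression, with a Flag tag on FLI1, and the antibody recognised the tag. The control cells received PBS and the treated cells received IFN-γ for 24 h. Each condition was 1 library, so the treatment was not tested, and the intervals given are exact 95% intervals that cover counting error only. The 2 input libraries are not analysed here, the lists hold no expression values, and a gene without a peak was below the calling cutoff, which does not show it to be unbound.

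FLI1 is a transcription factor of the ETS family, whose members recognise DNA around the core GGAA. In dermal fibroblasts FLI1 is known as a repressor of the type I collagen genes, and loss of FLI1 there is linked to fibrosis. In carcinomas most interstitial collagen comes from fibroblasts, whereas epithelial cells make basement membrane, anchoring fibril and transmembrane collagens.

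The DNA under 7 of the peaks that the results turn on is shown as the IFN-γ summit with 100 bp on either side (GRCh38, read 5′ to 3′ on the strand of the gene). Capitals mark the ETS core GGAA and its complement TTCC, the whole FLI1 octamer CAGGAAGT or CCGGAAGT with its complement, and the AP-1 motif TGANTCA. COL20A1 (chr20:63326967-63327167, plus strand) and COL16A1 (chr1:31689886-31690086, minus strand) held the highest-ranked collagen peaks. COL4A2 (chr13:110319816-110320016, plus strand) and COL25A1 (chr4:109079854-109080054, minus strand) held peaks whose ratio of IFN-γ to control pileup lay above that of the median shared peak.
COL20A1: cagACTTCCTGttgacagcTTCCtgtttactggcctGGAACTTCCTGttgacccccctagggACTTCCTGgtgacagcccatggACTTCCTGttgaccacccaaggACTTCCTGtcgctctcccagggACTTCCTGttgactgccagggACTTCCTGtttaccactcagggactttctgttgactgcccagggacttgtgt
COL16A1: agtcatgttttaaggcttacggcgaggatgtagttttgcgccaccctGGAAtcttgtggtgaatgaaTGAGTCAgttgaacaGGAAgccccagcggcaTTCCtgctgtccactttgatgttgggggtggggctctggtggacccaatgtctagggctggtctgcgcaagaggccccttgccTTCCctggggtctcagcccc
COL4A2: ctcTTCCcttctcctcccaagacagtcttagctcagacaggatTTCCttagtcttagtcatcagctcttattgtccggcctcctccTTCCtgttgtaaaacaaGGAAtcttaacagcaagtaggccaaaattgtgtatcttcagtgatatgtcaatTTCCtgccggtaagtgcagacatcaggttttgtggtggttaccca
COL25A1: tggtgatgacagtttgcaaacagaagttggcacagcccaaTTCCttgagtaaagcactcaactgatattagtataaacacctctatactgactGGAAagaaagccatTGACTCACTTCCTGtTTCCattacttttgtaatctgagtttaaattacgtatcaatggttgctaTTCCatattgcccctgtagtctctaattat

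The next 3 windows were shown for their tandem ETS cores, and COL24A1 and COL15A1 among them were chosen after their values were seen. They lay in introns of COL13A1 (chr10:69936103-69936303, plus strand), COL24A1 (chr1:85858572-85858772, minus strand) and COL15A1 (chr9:98950341-98950541, plus strand).
COL13A1: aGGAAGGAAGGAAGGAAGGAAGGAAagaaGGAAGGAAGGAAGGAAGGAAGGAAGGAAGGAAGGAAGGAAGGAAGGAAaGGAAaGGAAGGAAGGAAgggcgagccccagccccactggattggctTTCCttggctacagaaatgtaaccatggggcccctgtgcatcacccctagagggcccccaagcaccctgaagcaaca
COL24A1: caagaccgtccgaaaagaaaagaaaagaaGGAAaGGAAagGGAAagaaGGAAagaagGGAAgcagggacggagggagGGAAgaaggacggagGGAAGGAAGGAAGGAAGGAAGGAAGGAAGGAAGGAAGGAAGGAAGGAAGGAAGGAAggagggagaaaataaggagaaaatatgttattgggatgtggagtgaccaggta
COL15A1: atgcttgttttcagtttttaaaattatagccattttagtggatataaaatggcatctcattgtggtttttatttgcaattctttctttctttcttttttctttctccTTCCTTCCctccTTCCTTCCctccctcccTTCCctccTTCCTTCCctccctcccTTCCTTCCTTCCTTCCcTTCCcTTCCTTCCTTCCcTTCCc

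The promoter of COL27A1 is shown because it held the strongest control peak at the main start of any collagen gene. These are the 250 bases before the start in the RefSeq promoter table (chr9:114155287-114155536, GRCh38.p14, plus strand), with the same letters in capitals.
COL27A1: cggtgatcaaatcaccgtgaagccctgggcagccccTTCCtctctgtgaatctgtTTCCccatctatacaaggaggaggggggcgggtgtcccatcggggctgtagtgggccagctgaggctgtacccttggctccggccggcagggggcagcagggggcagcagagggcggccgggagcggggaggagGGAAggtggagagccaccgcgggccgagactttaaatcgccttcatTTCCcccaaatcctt

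A peak by the rule was present at 32 of 44 collagen genes (72.7%) in the control library, against 67.6% of all protein-coding genes. In the IFN-γ library 35 of 44 (79.5%) had a peak, against 67.8%. A peak was listed in both libraries at 29 genes, against 62.6% of all coding genes, and in neither at 6 (COL1A2, COL6A5, COL6A6, COL9A1, COL10A1 and COL14A1), against 27.2%. Those with control peaks alone were COL6A2, COL9A2 and COL18A1 (3 genes, against 1002 of 20046 coding genes), and 6 genes had IFN-γ peaks alone, against 5.26%. Collagen genes are long, with a median span of 145 kb against 27.4 kb over all coding genes, and a long gene has more room for a peak. Of the 31 collagen genes of at least 50 kb, 22 (71.0%) had a control peak and 26 (83.9%) an IFN-γ peak, against 80.8% and 84.1% of all coding genes of that length. The control share was thus lower than the background and the IFN-γ share near it, over 31 genes and without an interval. Collagen bodies of at least 50 kb held 1.08 control peaks per 100 kb and 1.43 IFN-γ peaks per 100 kb, against 1.07 and 1.39 over all coding genes of that length. Per unit of length, peaks were thus about as frequent at long collagen genes as at other long genes.

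The peaks at collagen genes were weaker than those of the whole lists, more so in the control library. Their median fold enrichment, which is the fragment pileup at the summit over the local background with 1 added to each, was 5.56 for the control and 5.84 for the IFN-γ peaks, against 6.81 and 6.57 over all peaks. By p-value, the median collagen peak stood 69.1% of the way down the control list and 55.3% down the other. Only 3 of 87 control peaks and 4 of 101 IFN-γ peaks lay in the top 10% of their lists. The fragment counts given for single genes below are not scaled for depth. By the lowest backgrounds, depth was 1.46 times as high with IFN-γ. An equal or higher IFN-γ count alone therefore does not show a higher value at equal depth.

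**Figure D1:**
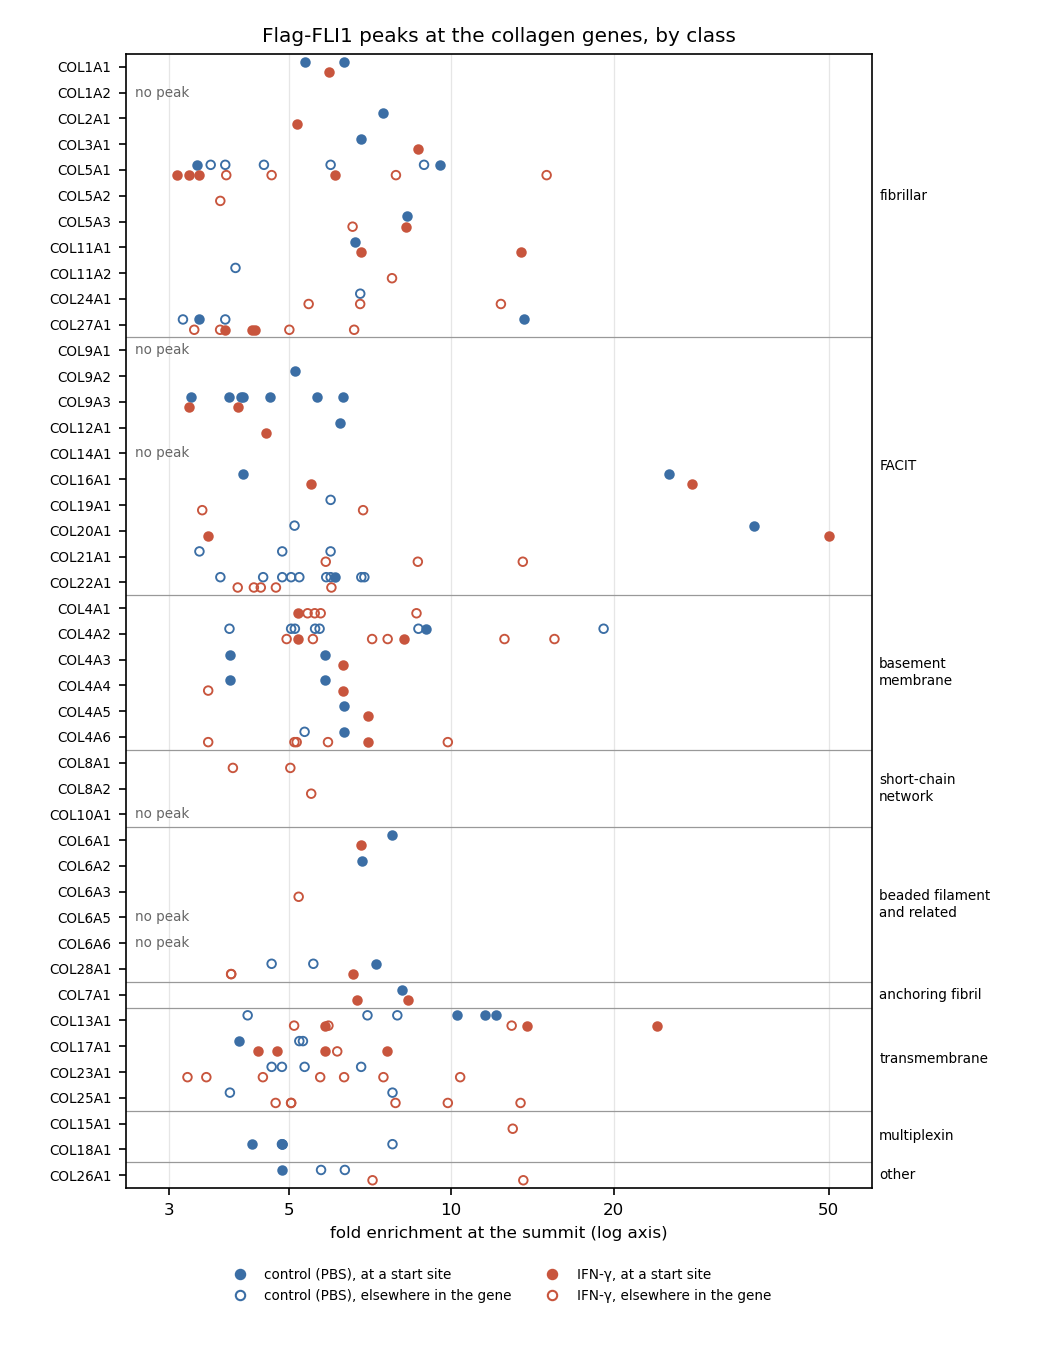
Fold enrichment of each peak (log axis) at each of the 44 collagen genes, grouped by protein class, with control peaks in blue and IFN-γ peaks in red. Filled points overlap 3 kb around an annotated start of the gene and open points lie elsewhere in it, and each point is 1 peak. COL20A1 and COL16A1 stand far to the right in both libraries, and 6 genes have no peak.

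Fibrillar collagens are the chains of the banded fibrils that give tissues tensile strength. Of the 11 genes, 9 had a control peak and 10 an IFN-γ peak, and 5 had a peak at the start of their main transcript (the MANE Select transcript or, without one, the Ensembl canonical one) in each library. COL1A2, which encodes a chain of type I collagen, had no peak in either library. COL1A1, its partner chain, had control peaks of 6.33-fold with 12 fragments and 5.35-fold with 10 fragments, both in intron 1. The IFN-γ peak of 5.93-fold with 21 fragments overlapped the latter, 1640 bp past the start and 115 bp from the start of a long non-coding RNA. COL3A1, the fibrillar collagen of vessels and skin, had 13 control and 21 IFN-γ fragments (6.81-fold and 8.67-fold) at intron 34, near the start of a retained-intron transcript, and none at its main start. The highest fold at these interstitial collagens was the 8.67 of COL3A1.

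COL5A1 and COL27A1 carried most of the fibrillar peaks. COL27A1, a minor fibrillar collagen of cartilage, had a control peak 15 bp upstream of its start with 27 fragments and a fold of 13.6. At that site the IFN-γ library had 19 fragments and a fold of 3.81, and the local background was 1.055 fragments without and 4.25 fragments with IFN-γ. Both the lower pileup and the higher background went into the lower fold. COL5A1, whose chain limits the diameter of type I fibrils, had 7 control and 8 IFN-γ peaks. Near its start the control peak 872 bp past it had 25 fragments (9.53-fold), and the IFN-γ peak matched to it, with its summit 232 bp upstream of the start, had 22 fragments (3.28-fold). A second site about 3 kb past the start had 16 control and 25 IFN-γ fragments (3.39-fold and 6.09-fold).

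The remaining fibrillar genes had at most 3 peaks per library. COL11A1, a cartilage collagen also known from tumour stroma, had 19 control and 41 IFN-γ fragments at exon 66, near the start of another retained-intron transcript, and folds of 6.64 and 13.4. COL2A1, the main cartilage collagen, had 19 fragments in each library in intron 1 (7.48-fold and 5.18-fold). COL5A3 had 16 and 29 fragments in intron 1, about 1 kb past its start (8.27-fold and 8.26-fold). COL24A1, named after its values were seen, had an IFN-γ peak of 42 fragments (12.4-fold) in intron 37 that the control list lacked.

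The fibril-associated collagens with interrupted triple helices (FACITs) sit on the surface of fibrils, and they held the strongest collagen peaks. At COL20A1 the summit lay in intron 31 of the main transcript, 125 bp (control) and 135 bp (IFN-γ) upstream of the start of a retained-intron transcript. It reached 84 control fragments and 150 IFN-γ fragments, with folds of 36.3 and 50.1, and it ranked 608 of 30819 and 321 of 39654. At COL16A1 the summit lay in intron 22, 35 bp and 18 bp upstream of the start of a transcript without a defined coding sequence. It reached 51 and 96 fragments, with folds of 25.3 and 27.9 and ranks of 1716 and 1285. Neither gene had such a peak at its main start, where COL16A1 had 10 and 16 fragments and COL20A1 had no peak.

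At the other FACIT genes no peak exceeded 13.6-fold. COL12A1, whose product links fibrils to other matrix, had 23 control and 19 IFN-γ fragments in exon 1 (6.22-fold and 4.54-fold). COL9A3, a cartilage chain, had 7 control peaks of 3.29 to 6.31-fold along its 24.9 kb, and 2 of them overlapped the 2 IFN-γ peaks of the gene. COL9A2, another chain of the same heterotrimer, had a control peak of 11 fragments and none with IFN-γ. COL22A1, a collagen of tissue junctions such as that of muscle and tendon, had 10 control peaks and 5 IFN-γ peaks, none above 6.91-fold. COL21A1 had 3 shared peaks within its annotated span, of which the strongest had 17 control and 43 IFN-γ fragments (5.98-fold and 13.6-fold). COL9A1 and COL14A1 had no peak.

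Type IV collagens form the network of basement membranes, and their genes lie in head-to-head pairs that share a promoter region. All 6 genes had an IFN-γ peak and 5 had a control peak. COL4A2 had 8 peaks in each library, 6 of them shared, and its strongest lay in intron 3, 12.6 kb past the main start. That site had 41 control and 97 IFN-γ fragments, with folds of 19.2 and 15.5. COL4A1 had no control peak and 5 IFN-γ peaks of 5.21 to 8.63-fold, all in intron 1. The peak nearest to the start, with 14 fragments, lay 1022 bp past the main start of COL4A1 and 1149 bp upstream of that of COL4A2, and counted for both. The other pairs had peaks at their common start in both libraries. COL4A3 and COL4A4, which encode chains of the glomerular basement membrane, shared a site with 11 control and 15 IFN-γ fragments (5.84-fold and 6.31-fold). COL4A5 and COL4A6 shared a site with 12 and 19 fragments (6.33-fold and 7.001-fold).

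The 4 transmembrane collagens each had peaks in both libraries. COL13A1, a collagen of cell adhesion sites, had 6 peaks per library, of which 5 were shared. Its strongest IFN-γ peak, in intron 32, had 60 fragments and a fold of 24.02, against 26 fragments and 11.5-fold in the control. Another, in intron 1, had 26 control and 47 IFN-γ fragments (12.1-fold and 13.8-fold). At its main start the values were 23 and 22 fragments (10.3-fold and 5.84-fold). COL17A1, the hemidesmosome collagen of basal epithelial cells, had 3 control peaks of up to 5.32-fold, and a peak 199 bp upstream of its main start in the IFN-γ list alone (18 fragments, 4.39-fold). COL25A1, a collagen of neurons, had 2 control and 6 IFN-γ peaks. COL23A1, named after its values were seen, had 4 control and 7 IFN-γ peaks.

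Of the remaining classes, COL7A1 is the anchoring fibril collagen that fastens the epithelial basement membrane to the dermis. It had 18 control and 37 IFN-γ fragments 382 bp and 573 bp upstream of its start (8.12-fold and 8.34-fold). Its other peak, in the IFN-γ list alone with 46 fragments, lay in exon 119 near the end of the gene, 406 bp upstream of the start of the neighbouring UCN2. Among the beaded filament genes COL6A1 had 15 control and 19 IFN-γ fragments upstream of its start (7.79-fold and 6.82-fold), COL28A1 had 3 peaks in each library, and COL6A2 had 1 control peak of 15 fragments, 73 bp upstream of its start. COL6A3, named after its values were seen like COL8A1, COL8A2 and COL11A2, had 1 IFN-γ peak of 5.22-fold, and COL6A5 and COL6A6 had no peak. COL18A1, the precursor of endostatin, had 5 control peaks of 4.27 to 7.79-fold, 3 of them at its start, and no IFN-γ peak. COL15A1, the other multiplexin, had the reverse, with no control peak and an IFN-γ peak of 35 fragments (13.0-fold) in intron 2. Among the short-chain network genes none had a control peak, COL8A1 and COL8A2 had 2 and 1 IFN-γ peaks of at most 5.51-fold, and COL10A1 had none. COL26A1, which is in none of these classes, had a shared intronic peak with 16 control and 41 IFN-γ fragments (6.36-fold and 13.6-fold).

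At start sites, 26 of 44 collagen genes (59.1%) had a control peak within 3 kb of any annotated start, against 61.9% of all coding genes, and 22 had an IFN-γ peak, against 59.7%. At the main start the count was 18 genes (40.9%) in each library, against 57.3% and 54.1%. The collagen share at main starts was thus lower than the background in both libraries, over 44 genes and without an interval. In 6 genes, COL3A1, COL11A1, COL20A1, COL22A1, COL26A1 and COL28A1, the promoter peak lay at another annotated start only. Of their 12 promoter peaks over both libraries, 8 were nearest to a retained-intron transcript, 2 to a transcript without a defined coding sequence and 2 to a protein-coding one. They lay inside the main transcript, so the word promoter here follows the annotation. A main-start peak in either library was present at 21 genes, against 60.4% of all coding genes. COL18A1, COL6A2 and COL9A2 had it in the control library alone, against 1262 of 20046 coding genes, and COL17A1, COL4A1 and COL4A2 with IFN-γ alone, against 3.04%.

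Collagen genes with a main-start peak had a higher median CpG ratio than those without. The ratio of observed to expected CpG in the 250 bases before and 50 after the main start had a median of 0.737 in the 21 collagen genes with a main-start peak in either library and 0.567 in the 23 without. Over all coding genes the medians were 0.860 and 0.407. The collagen groups overlapped, from 0.0820 at COL17A1 to 1.02 at COL4A1 among genes with a peak and from 0.0947 to 1.10 among genes without. In the RefSeq table, which held 44 promoters of 32 of these genes, none contained the FLI1 octamer, against 7.02% of the 35116 promoters in the table, and 42 contained the core GGAA, present in 95.5% of all. The AP-1 motif was in 1 of the 44, against 7.71% of all.

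**Figure D2:**
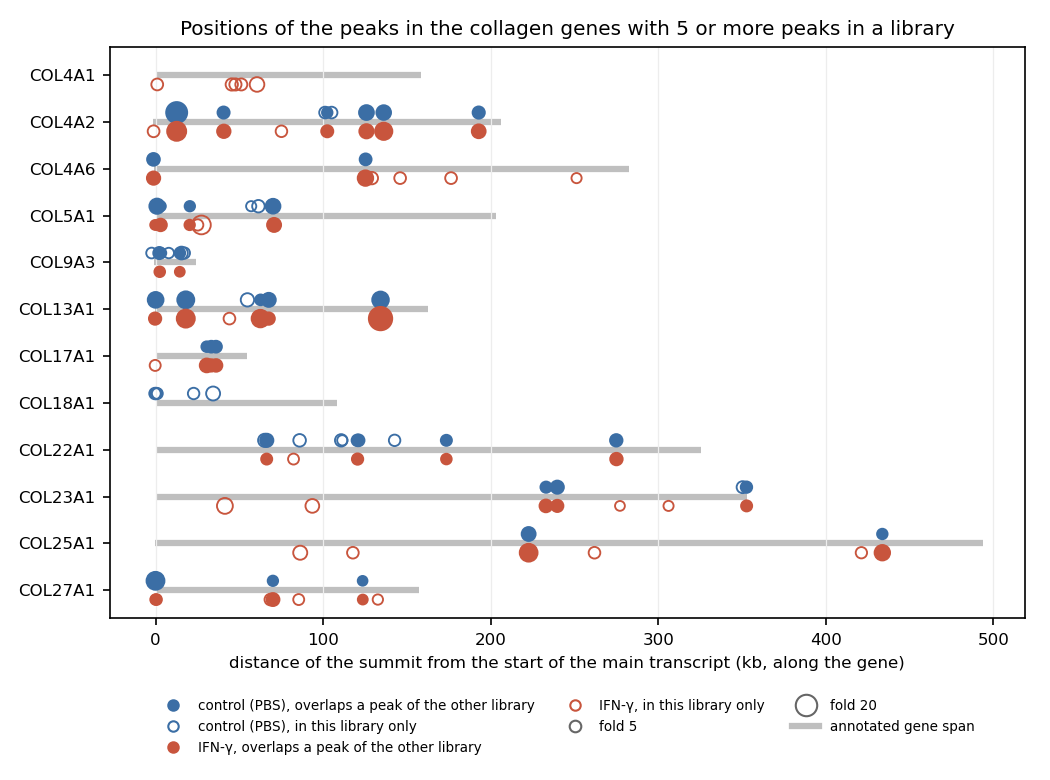
Position of each peak along the 12 collagen genes with 5 or more peaks in a library, as distance in kb from the start of the main transcript. Blue marks control peaks and red marks IFN-γ peaks, filled points overlap a peak of the other library, open points do not, the point area grows with the fold, and the grey bar is the annotated gene. The red points of COL4A1 and the blue points of COL18A1 are all open, and the filled points of COL4A2 line up in both libraries.

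Most of the collagen peaks were intronic. Of 90 control peak assignments to a gene, 73 fell in an intron of the main transcript, 11 of them in intron 1. Another 12 lay upstream and 5 in an exon. In the IFN-γ library 85 of 104 fell in an intron, 19 of them in intron 1. The genes with 5 or more peaks in a library held 43 of the 90 control assignments (6 genes) and 63 of the 104 IFN-γ assignments (10 genes). Of the 78 control assignments within the main transcript, 27, 23, 16 and 12 fell in 4 equal parts of its length counted from the start, and of the 90 IFN-γ assignments 29, 20, 22 and 19. The part next to the start thus held the most in both libraries. The same counts over all peaks are not given here, so these placements are not shown to be particular to collagen genes. In all, 23 of 87 control peaks (26.4%) and 19 of 101 IFN-γ peaks (18.8%) lay within 3 kb of the main start of a collagen gene. Near an annotated start of any gene lay 49.4% of control and 38.6% of IFN-γ collagen peaks. Over all peaks these shares were 56.9% and 47.0%.

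Whether the same collagen sites were occupied in both conditions was examined by overlap of at least 1 bp. Of the control peaks 56 of 87 (64.4%, interval 53.4 to 74.4) overlapped an IFN-γ peak, against 77.5% of all control peaks. Of the IFN-γ peaks 59 of 101 (58.4%, 48.2 to 68.1) overlapped a control peak, against 61.0% of all IFN-γ peaks. A shared peak was present at 29 genes. More peaks were listed with IFN-γ than in the control at 17 genes and fewer at 8 genes, while the IFN-γ list was longer as a whole. The same counts over all coding genes are not given here, so 17 against 8 is not read as particular to collagen genes. Peaks of 1 list alone were weaker, with a median of 5.05-fold against 5.98-fold for shared peaks in the control and of 5.09-fold against 6.59-fold with IFN-γ.

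The 2 lists differed in depth. The lowest background with IFN-γ was 1.46 times the lowest one without, and pileups were scaled by this ratio. At the COL24A1 site in the IFN-γ list alone, 42 fragments correspond to 28.9 at the control depth, where 8 would have reached the lowest −log10 p of the control list, taken as its cutoff, and at COL15A1 the scaled pileup was 24.04 against 6 needed. Over all unshared collagen peaks, the scaled pileup reached the cutoff of the other list at 31 of 31 control peaks and 36 of 42 IFN-γ peaks. At the other 6 IFN-γ peaks it did not. The control count followed from the scaling, which raised pileups and backgrounds alike towards a list with a lower cutoff. Nothing is drawn from that count. Only the ratio of 1.46 was used here, and the share over all unshared peaks of the lists is not given.

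Pileups were compared at the 56 sites where the peaks of the libraries formed mutual best overlaps. The summits of a pair lay within 100 bp of each other at 43 of 56 sites. At the others, such as those at the main starts of COL5A1 and COL13A1, the ratio compares pileups at different positions. The scaled ratio of IFN-γ to control had a median of 1.15 at collagen sites and of 1.01 over all 23461 shared sites. Summed over the collagen sites the ratio was 1.20 (interval 1.11 to 1.30) at this scaling, but 0.959 when scaled by the median backgrounds at shared summits, so only comparisons with the other shared sites are drawn from it. At the 28 distal collagen sites the median was 1.30, near the 1.24 of all distal sites, and at the 28 sites near an annotated start it was 1.10 against 0.887. The interval lay above the median of all shared sites at 4 of 56 collagen sites, against 11.7% of all shared sites, and below it at 1 of 56, against 8.06%. These counts were not above the background in either direction.

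The 4 sites above that median were all distal, where 18.3% of all shared sites were above it. At COL13A1, in intron 2, 8 control fragments stood against 44 with IFN-γ, a scaled ratio of 3.78 (1.76 to 9.29). At COL4A2, the intron 3 site went from 41 to 97 fragments (1.63, 1.12 to 2.40) and the intron 16 site from 20 to 56 (1.92, 1.14 to 3.38). At COL25A1, in intron 3, 15 fragments stood against 41 (1.88, 1.02 to 3.65). These ratios compare pileups and are not corrected for the local background. At the COL4A2 intron 3 site that background was 1.19 control and 5.31 IFN-γ fragments, and the fold was lower with IFN-γ, 15.5 against 19.2. It was higher with IFN-γ at COL13A1 (12.9 against 4.20), COL4A2 intron 16 (12.6 against 8.70) and COL25A1 (13.4 against 7.79). The site below was the COL27A1 promoter, with a scaled ratio of 0.483 (0.254 to 0.902). With the other scaling the median of all shared sites was 0.809, so 1 was not the middle of the shared sites. The intervals of COL4A2 and COL25A1 then included a ratio of 1. Of the 56 intervals, 1 lay above 1 and 4 below. The intron 2 site of COL13A1 (3.02, 1.41 to 7.42) was the site above. The sites below were all near annotated starts, at COL27A1 (0.386, 0.203 to 0.721), COL12A1 (0.453, 0.233 to 0.870), COL5A1 (0.483, 0.260 to 0.892) and the main start of COL13A1 (0.525, 0.279 to 0.985). The comparison with the median of all shared sites does not change with the scaling. Those of COL12A1, COL5A1 and the COL13A1 start were not below that median. Relative to it their intervals were 0.289 to 1.08, 0.321 to 1.10 and 0.345 to 1.22.

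The FLI1 octamer occurred within 100 bp of the summit, on either strand, in 8 of 87 control peaks (9.20%, interval 4.05 to 17.3) and 10 of 101 IFN-γ peaks (9.90%, 4.85 to 17.5). Over all peaks the shares were 12.8% and 13.5%. In equally wide windows placed 1 kb away on each side of the collagen summits it occurred in 3 of 174 and 0 of 202 cases. The core GGAA, contained in the octamer, occurred in 84 of 87 and 100 of 101 collagen windows, and its share in the flanking windows was already 81.6% and 85.1%.

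The strongest collagen peak stood on an array of octamers. The COL20A1 window held 7 copies of CAGGAAGT on the strand opposite to the gene, read in the printed sequence as ACTTCCTG, and the last 6 followed each other at steps of 21 to 23 bp. Of all 39654 IFN-γ summits only 6 had at least 7 octamers, and in the collagen windows COL11A2 was the only other gene with more than 1, with 2 copies. The octamer under the COL25A1 site in intron 3 overlapped an AP-1 motif by 1 base. COL16A1 and the COL4A2 intron 3 site, next in rank, had 4 and 5 ETS cores and no octamer.

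Tandem runs of at least 4 GGAA units, which contain the core, lay under 3 control peaks (3.45%, interval 0.717 to 9.75) and 6 IFN-γ peaks (5.94%, 2.21 to 12.5), against 6.94% and 10.8% of all peaks. The control peaks were those of COL13A1, COL24A1 and COL28A1, with runs of 12, 14 and 9 units. With IFN-γ, windows at COL15A1, COL25A1 and COL26A1 held runs as well. The run peaks of COL15A1 and COL25A1 were in the IFN-γ list alone. That of COL26A1 (34 fragments) overlapped a control peak (15 fragments) whose summit lay elsewhere, with no such run in its window. None of the 174 control and 202 IFN-γ flanking windows held such a run. At the COL13A1 run the pileup was 26 control and 60 IFN-γ fragments, and at the COL24A1 run it was 15 and 25. How read placement on such repeats bears on these pileups was not tested.

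The AP-1 motif, in which the ETS core is not contained, was in 24 of 87 control windows (27.6%, interval 18.5 to 38.2) and 27 of 101 IFN-γ windows (26.7%, 18.4 to 36.5), against 17.7% and 22.1% of all peaks. The shares lay farthest from those of all peaks near start sites. Of the collagen peaks near an annotated start of any gene, 12 of 43 control peaks (27.9%, 15.3 to 43.7) and 14 of 39 IFN-γ peaks (35.9%, 21.2 to 52.8) held it, against 10.1% and 13.6% of all such peaks. These starts include those of other genes within or beside the collagen loci. At main starts of any gene the collagen shares were 28.6% (13.2 to 48.7) and 36.0% (18.0 to 57.5), against 7.88% and 11.0%. At other annotated starts only they were 26.7% (7.79 to 55.1) and 35.7% (12.8 to 64.9). Those intervals included the 22.4% and 25.4% of all such peaks. Such starts held 15 of the 43 collagen control peaks near a start, against 2705 of 17536 among all control peaks near a start. The any-start shares thus compare different mixes of starts. At the main starts of the collagen genes themselves the motif was in 3 of 23 control peaks (13.0%, 2.78 to 33.6) and 4 of 19 IFN-γ peaks (21.1%, 6.05 to 45.6), with intervals that included the 7.88% and 11.0%. At any of their own annotated starts it was in 8 of 39 (20.5%, 9.30 to 36.5) and 11 of 35 (31.4%, 16.9 to 49.3). COL6A1 had the motif at its main-start summit in both libraries. COL5A1 and COL7A1 had it in the control library alone. COL5A3, COL16A1 and the common site of COL4A3 and COL4A4 had it in the IFN-γ library alone. At distal collagen peaks the shares were 27.3% and 21.0%, against 27.7% and 29.6% of all distal peaks. Many of these sites were counted in both libraries, so the libraries are not independent of each other here.

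The genes whose products modify, export, cross-link, sense or cut collagen were described beside them. Of 41 such genes, 28 (68.3%) had a control and 26 (63.4%) an IFN-γ promoter peak at any start, against 61.9% and 59.7% of all coding genes. P4HB, the shared subunit of the prolyl 4-hydroxylases, ranked 45 without and 52 with IFN-γ, with 206 and 278 fragments at its promoter. MIA3, which loads procollagen into export carriers, had 62 and 99 fragments. P4HA2, a catalytic subunit partnering P4HB, had 63 and 118 fragments. PPIB, a prolyl isomerase of the endoplasmic reticulum, had 62 and 90 fragments, and CRTAP, its partner in prolyl 3-hydroxylation, had 61 and 65. By role, a control promoter peak was present at 6 of 6 chaperone and export genes, 5 of 5 cross-linking enzymes (LOX and LOXL1 to LOXL4), 7 of 10 hydroxylases, 7 of 10 propeptide-processing genes, 1 of 2 glycosyltransferases and 1 of 2 receptors, but at 1 of 6 collagenases, MMP1. With IFN-γ the counts were 5 of 6 for chaperone and export, 4 of 5 for cross-linking, 8 of 10 for hydroxylases, 5 of 10 for propeptide processing, 1 of 2 for glycosyltransferases and for receptors, and 2 of 6 for collagenases, MMP1 and MMP8. The summits at FKBP10 and PLOD3 in both libraries were nearest to the starts of the neighbours P3H4 and ZNHIT1. The control summit at LOXL3 was nearest to the start of its neighbour DOK1. In neither library was there a promoter peak at P4HA3, P3H3, COLGALT2, ADAMTS2, MEP1A, MEP1B, DDR2, MMP2, MMP9, MMP13 or MMP14.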

How the data were processed

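ChIP-seq with an anti-Flag antibody was carried out in HK1 cells overexpressing Flag-FLI1, with 1 library after PBS and 1 after IFN-γ. Trimming by the authors used Cutadapt 1.18 and mapping to GRCh38 used Bowtie2 2.3.4.1, after which they marked duplicates with Picard and called peaks with MACS 2.1.2 (stated p cutoff 0.01). How the input libraries entered the calling is not given in the sources used here. The deposited values are the fold enrichment (a ratio), the −log10 p and −log10 q of each peak and its summit position, beside a display score, not used here, that restates the deposited −log10 q. The lowest deposited −log10 p was 3.516 in the control and 3.461 in the IFN-γ list, above that of the stated cutoff, and the lowest deposited −log10 q was 1.302 and 1.318. The lowest −log10 p of each list served as its cutoff.

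Summit pileups (fragments) and backgrounds were recovered from the fold enrichment and −log10 p under the Poisson model of MACS, with 1 added to each. A whole pileup was found for 100.0% of peaks, within a relative error of 6.21e-06. Depth beyond this is unknown, and the IFN-γ to control ratio of the lowest backgrounds, 1.46, served as relative depth. Ratios carry exact conditional binomial intervals and shares exact Clopper-Pearson intervals, both covering counting error only.

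Genes and transcripts were those of GENCODE release 44, and promoters were 3 kb either side of a TSS. Motif searches covered both strands of the 201 bp centred on each summit. The genes named were those with a promoter peak, those of the 10 highest-ranked collagen peaks per library, COL1A1, COL1A2, COL3A1, the head-to-head pairs, those whose pileup ratio interval lay outside the median of all shared sites, those without a peak, and, among 41 processing genes, the 5 with the highest-ranked promoter peaks and those without one. COL6A3, COL8A1, COL8A2, COL11A2, COL15A1, COL23A1 and COL24A1 were named after their values were seen. The members and lists were chosen with earlier results of these data known. The scripts were tested on simulated data, and Python 3.11.15, pandas 2.3.3, scipy 1.17.1 and pysam 0.24.0 were used. The sequence and values of 1 site are not reported here.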

Additional observations from a re-analysis of the deposited data

How the results depend on the processing

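No paired analysis was possible because there was only 1 library for each treatment, and for the same reason no replicate could be left out. Of 86 values recomputed over 15 alternatives, 74 stayed within their counting interval or within 1.5 times the main count. The summed pileup ratio at shared collagen sites changed direction, from 1.20 to 0.959 (interval 0.886 to 1.04), when scaled by the median backgrounds at shared summits. With a q-value under 1e-05 the control list kept 55 collagen peaks and 47.4% of the IFN-γ collagen peaks were shared. Sharing by summits within 100 bp gave 49.4% of control and 42.6% of IFN-γ peaks. The promoter share was 49.4% in the control and 38.6% in the IFN-γ library with 3 kb around any annotated start. It fell to 30.2% and 23.8% with a window of 1 kb, and to 32.2% and 24.8% with the TSS of 1 transcript per gene. In place of the octamer, the core GGAA was in 96.6% of control and 99.0% of IFN-γ windows. Its share cannot be lower than that of the octamer, which contains it. A run of at least 4 GGAA units was in 3.45% of control windows.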
